A study of Homo sapiens with 6 samples.

Results

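The nuclear lamina and the proteins that hold it to the inner nuclear membrane were followed through 10 genes, taken from a table of 19775 genes as every probe set annotated to these symbols alone. The genes are the lamins LMNA, LMNB1 and LMNB2, the lamin B receptor LBR, the LEM-domain proteins EMD and TMPO, the chromatin tether BANF1, and the SUN and KASH proteins SUN1, SUN2 and SYNE2. They were chosen by symbol and not by a threshold on signal, but with earlier results of these data known. The cells were WM-266.4, a line from a metastatic human melanoma. The siPIR cells received 4 siRNA duplexes against PIR, which encodes the nuclear iron-binding protein pirin, the siCTR cells 4 non-targeting duplexes, and the NO cells the lipid reagent alone. Either siRNA mixture was given at 200 pmol in medium without serum, 24 h after seeding, and all cells were harvested 72 h after transfection. For each condition the RNA of 3 extractions was mixed and its labelled target placed on 2 Affymetrix HG-U133 Plus 2 arrays, so each condition is 1 RNA pool and the 2 arrays show hybridisation error only.

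Lamins are intermediate filament proteins that form a meshwork under the inner nuclear membrane. B-type lamins keep a lipid anchor and stay at the membrane, whereas lamin A and lamin C, both made from LMNA, also occur in the nuclear interior. LBR, emerin and the membrane-bound products of TMPO bind lamins and chromatin, and the SUN and KASH proteins form the LINC complex that joins the lamina to the cytoskeleton. Loss of lamin B1 is widely used as a mark of cellular senescence.

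PIR itself, which checks the labels, had signals of 392.3 and 381.5 in siPIR, 13543.7 and 13179.9 in siCTR, and 13990.2 and 14152.9 in NO. Of 8 melanocyte lineage markers, 7 had a probe set of their own and all 7 were bright, with a pool mean above 458.4 signal units. Their summed signal was 101359.4 and 103249.2 in siPIR, 95250.3 to 100932.8 in siCTR and 97479.0 to 103240.5 in NO. Of the fibroblast markers, 6 in all, 3 were measured, and the summed signal was 23044.4 to 23954.1 for siPIR, 14594.2 to 15808.1 for siCTR and 12625.6 to 12737.6 for NO. That sum was nearly all COL1A2, with 23527.1 and 22582.0 in siPIR, 14205.4 and 15381.1 in siCTR, and 12247.4 and 12264.5 in NO, and the matrix gene DCN reached at most 79.2 on any array. LUM, also measured, went the other way, with 108.3 and 106.7 in siPIR, 177.1 and 122.7 in siCTR, and 176.5 and 157.1 in NO. COL1A1, the remaining measured one, had 178.3 and 207.0 in siPIR, 185.8 and 226.1 in siCTR, and 156.2 and 84.7 in NO. The keratinocyte marker KRT10 was bright, KRT5 and KRT14 had at most 71.4, and the leukocyte marker PTPRC had at most 57.7. Of 5 leukocyte markers 2 were measured and 0 bright, and their summed signal was 399.0 to 404.6 for siPIR, 235.9 to 298.0 for siCTR and 267.1 to 285.0 for NO. CD14, one of them, had 274.9 and 289.9 in siPIR, 148.6 and 152.3 in siCTR, and 61.4 and 122.9 in NO. ITGAM, the other measured one, went the other way, with 59.5 and 32.3 in siPIR, 62.9 and 57.1 in siCTR, and 135.5 and 104.8 in NO. The pool means of PTPRC were 4.6 in siPIR, 12.9 in siCTR and 47.3 in NO. Of 4 endothelial markers 2 were measured and 0 bright. Their summed signal was 435.6 to 502.8 for siPIR, 384.5 to 400.2 for siCTR and 520.2 to 686.8 for NO. The part of all these markers in the results was not tested. For ACTB, the signal near the 3' end over that near the 5' end, which rises as RNA degrades, was 1.13 on both arrays of siPIR, 1.23 and 1.26 in siCTR, and 1.23 and 1.27 in NO.

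In the siPIR pool the transcripts of lamin B1, the lamina-associated polypeptide gene TMPO and SUN2 were each more than 2-fold less abundant than in either control pool. LBR was 2.04-fold lower than in siCTR and 1.49-fold lower than in NO. The transcripts of LMNA, BANF1, EMD, LMNB2, SUN1 and SYNE2 differed by less than 2-fold from either control at the brightest probe set of each gene. Genes are called lower or higher here if the pools differed by at least 1 on the log2 scale, which is 2-fold, with no overlap between their arrays. With 1 pool for each condition this is a rule of size, not a test, and no p-value is given. Differences are on the scale log2(signal + 5.4), and the range given after one is over the 4 pairs of arrays. In RNA of whole cultures, fewer cells that hold a transcript and less of it per cell cannot be told apart.

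All 10 genes passed the filter for measured genes, a mean above 70.2 signal units in at least 1 pool, and were above it in every pool. Each gene was represented by its brightest probe set. Against both controls alike, 3 of the 10 were called lower (LMNB1, TMPO and SUN2) and 0 higher, where 3.22% of the 13071 measured genes were called lower and 1.52% higher. Against siCTR, 4 were called lower and 0 higher, beside 4.26% and 3.75% of all measured genes. Against NO, 3 were called lower and 0 higher, beside 5.48% and 3.67%. The median log2 difference of the 10 genes was -0.32 against siCTR, where that of all measured genes was 0.05, and -0.26 against NO, where it was 0.03. Differences of any size and without overlap of arrays were common, since 23.2% of measured genes were lower and 28.4% higher than both controls in this way. Of the 10 genes, 7 were lower and 2 higher by that looser measure. Because the genes were chosen with earlier results of these data known, these counts describe the list and do not test it.

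**Figure D1:**
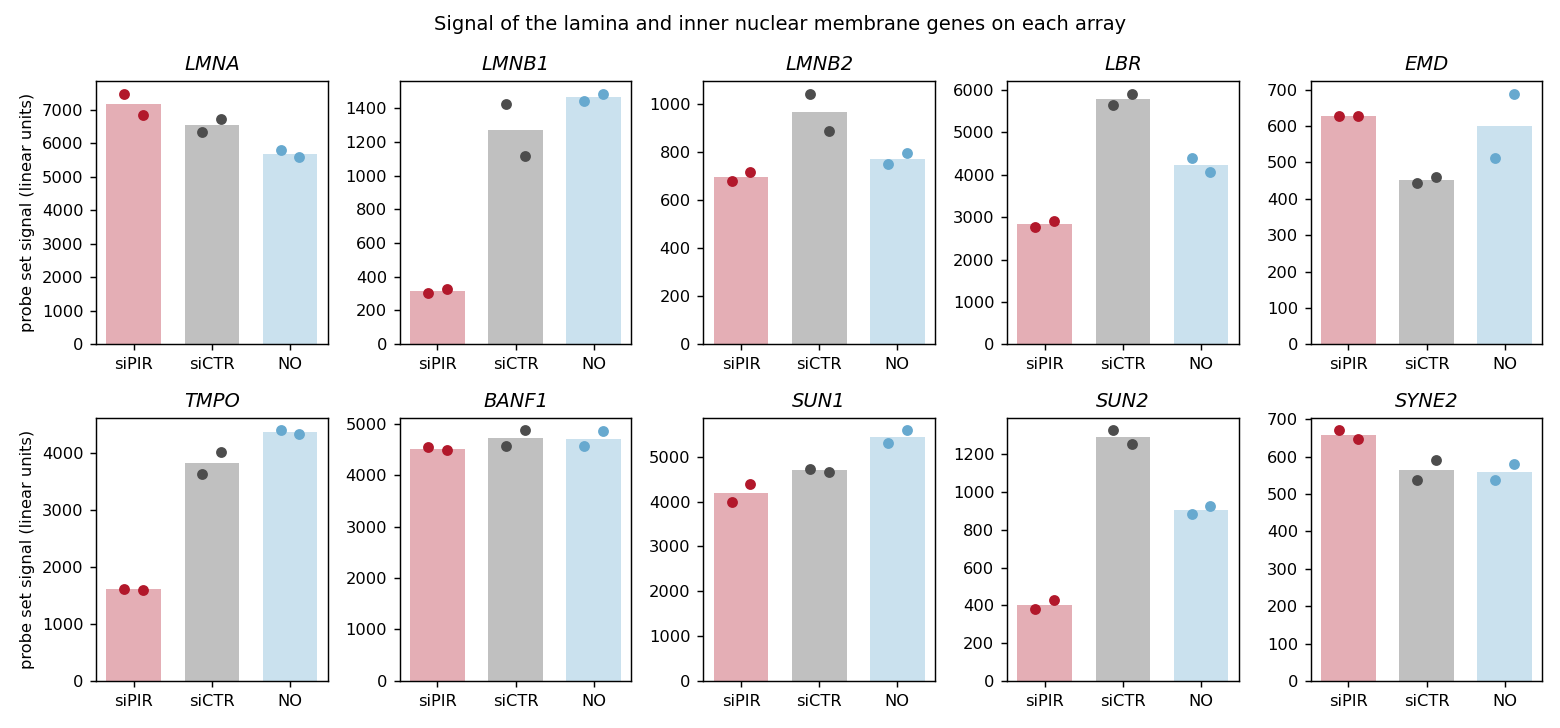
Signal of the representative probe set of each gene on each array, in linear units from 0, with points for the 2 arrays of a pool and bars for their mean. LMNB1, TMPO and SUN2 were lowest in the siPIR pool, at means of 314.0, 1610.1 and 403.2, and BANF1 was nearly level at 4516.2, 4719.8 and 4708.8 in siPIR, siCTR and NO.

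The lamins differed among themselves. LMNB1, which encodes lamin B1, had signals of 302.2 and 325.7 in siPIR, 1422.1 and 1117.7 in siCTR, and 1439.7 and 1486.1 in NO. Both siPIR arrays were far below all 4 control arrays, and the siPIR mean was 24.7% of the siCTR mean and 21.5% of the NO mean. The log2 difference of LMNB1 was -1.99 against siCTR (-2.21 to -1.76) and -2.20 against NO (-2.28 to -2.13), a 3.97-fold and a 4.6-fold lower level. Ranked from the lowest difference, LMNB1 was number 60 of 13071 measured genes against siCTR and number 43 against NO.

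LMNB2, which encodes the other B-type lamin, had signals of 679.2 and 716.0 in siPIR, 1044.8 and 888.1 in siCTR, and 749.8 and 795.4 in NO. The siPIR arrays were the lowest, but the NO arrays lay close above them and the siCTR arrays stood highest. The log2 difference of LMNB2 was -0.46 against siCTR (-0.62 to -0.31) and -0.15 against NO (-0.23 to -0.07), neither of them called. It lay at the 15.1 percentile of all measured genes against siCTR and at the 35.8 percentile against NO.

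LMNA, the source of lamin A and lamin C, had the opposite sign. Its signals were 7481.5 and 6843.7 in siPIR, 6327.1 and 6730.8 in siCTR, and 5800.2 and 5580.7 in NO, so the siPIR arrays were the highest without overlap. On the log2 scale LMNA differed by 0.13 against siCTR (0.02 to 0.24) and 0.33 against NO (0.24 to 0.42), and LMNA lay at the 58.4 and 74.1 percentiles of all measured genes. LMNA has 6 probe sets of its own, of which 5 were measured and 0 called. Against siCTR these 5 ranged from 0.06 to 0.39 on the log2 scale, and against NO from -0.03 to 0.75. The probe sets at both ends of the latter range carry the mark for sequence shared with other transcripts and are uncertain.

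Among the inner membrane proteins, TMPO and LBR were lower and emerin was not. TMPO encodes the lamina-associated polypeptide 2 family, whose members share a LEM domain that binds BANF1. Its brightest probe set had signals of 1614.9 and 1605.2 in siPIR, 3646.0 and 4020.3 in siCTR, and 4406.1 and 4348.7 in NO. The groups did not overlap, and the log2 difference was -1.25 against siCTR (-1.32 to -1.17) and -1.44 against NO (-1.45 to -1.43), a 2.37-fold and a 2.71-fold lower level. Of the 5 probe sets of TMPO, 4 were measured and all 4 were called lower against both controls. They agree within a narrow band against siCTR, at -1.25, -1.25, -1.21 and -1.10, and spread more widely against NO. There the second brightest had -1.10 and the third brightest -1.87, and the same probe sets had 0.15 and -0.66 for siCTR minus NO. The probe sets of 1 gene read the same RNA and are not replicates of the condition.

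LBR encodes a membrane protein with a lamin-binding head and a sterol reductase domain. Its signals were 2774.1 and 2907.0 in siPIR, 5654.1 and 5918.4 in siCTR, and 4389.4 and 4059.1 in NO. The siPIR arrays were lowest, and the NO arrays lay between them and the siCTR arrays. On the log2 scale LBR differed by -1.03 against siCTR (-1.09 to -0.96), just past the 2-fold rule, and -0.57 against NO (-0.66 to -0.48), short of it. Without siPIR replicate 1 or without siCTR replicate 2 the difference from siCTR was -0.99, and LBR was then not called.

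EMD encodes emerin, a LEM-domain protein mutated in a form of Emery-Dreifuss muscular dystrophy. Its signals were 627.3 and 627.9 in siPIR, 442.5 and 460.7 in siCTR, and 513.1 and 689.5 in NO. The siPIR arrays stood above the siCTR arrays and between the NO arrays, which were themselves far apart. Emerin's transcript differed on the log2 scale by 0.47 against siCTR (0.44 to 0.50) and 0.08 against NO (-0.14 to 0.29), and without NO replicate 1 the latter was -0.13.

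BANF1, the barrier-to-autointegration factor, is a small protein that binds DNA and the LEM domain. It had signals of 4545.3 and 4487.2 in siPIR, 4565.1 and 4874.5 in siCTR, and 4560.4 and 4857.3 in NO. The siPIR arrays were the lowest, by very little. BANF1 differed on the log2 scale by -0.06 against siCTR (-0.12 to -0.01) and -0.06 against NO (-0.11 to -0.01), the smallest of the 10 genes in each comparison.

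**Figure D2:**
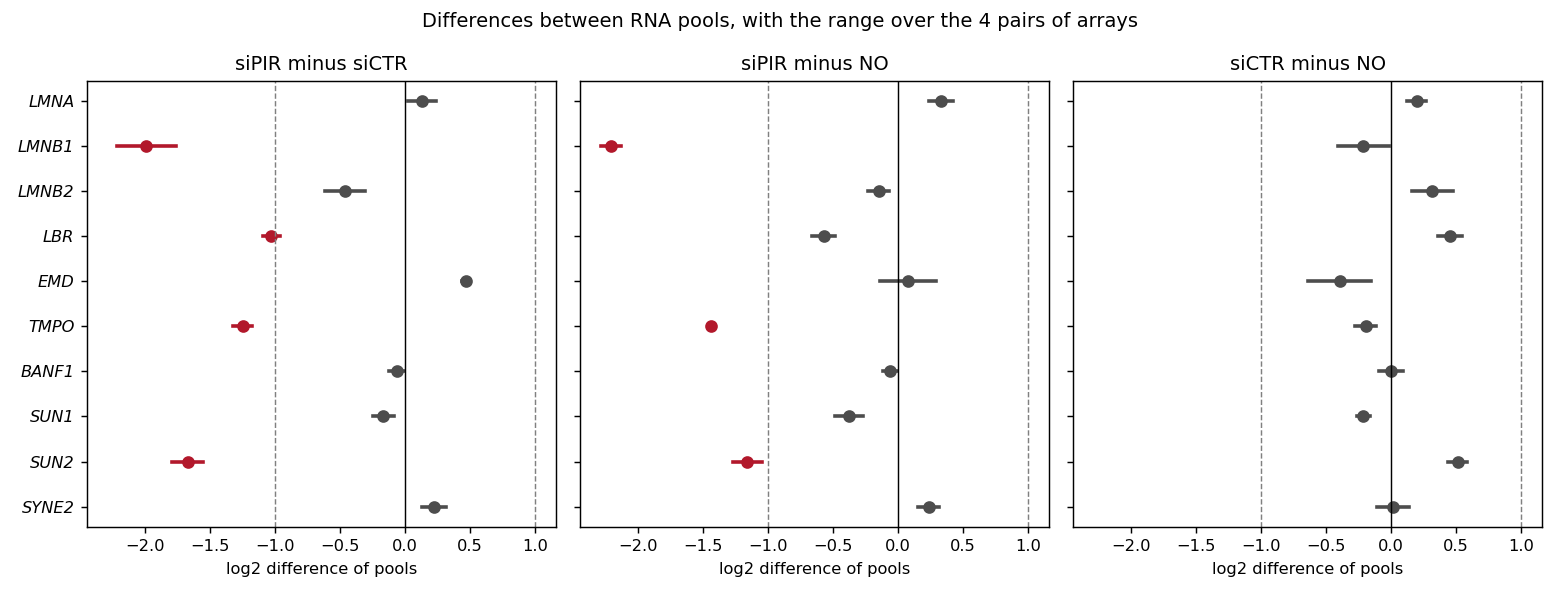
Log2 differences between RNA pools for each gene in siPIR minus siCTR, siPIR minus NO and siCTR minus NO, with points for the difference and lines for the range over the 4 pairs of arrays. Red marks the called genes and dashed lines mark 2-fold; LMNB1, TMPO and SUN2 were called in both siPIR comparisons, LBR against siCTR alone, and 0 of 10 between the controls.

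The LINC complex genes also differed from each other. SUN2, an inner membrane protein whose SUN domain holds KASH proteins in the outer membrane, had signals of 380.6 and 425.9 in siPIR, 1326.8 and 1255.5 in siCTR, and 882.7 and 925.1 in NO. The 3 pools were apart from each other, with siPIR lowest and siCTR highest. Relative to the controls SUN2 differed on the log2 scale by -1.67 against siCTR (-1.79 to -1.55) and -1.16 against NO (-1.27 to -1.04), a 3.18-fold and a 2.23-fold lower level.

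SUN1, its paralogue, was not called. The brightest of its 4 probe sets had signals of 3989.6 and 4402.9 in siPIR, 4737.3 and 4668.8 in siCTR, and 5309.1 and 5590.5 in NO, without overlap. SUN1 differed on the log2 scale by -0.17 against siCTR (-0.25 to -0.08) and -0.38 against NO (-0.49 to -0.27). The 2 dimmer measured probe sets had -0.91 and -0.40 against siCTR, and -0.41 and -0.29 against NO.

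SYNE2 encodes nesprin-2, a giant KASH protein that binds actin. Its brightest probe set had signals of 671.0 and 647.8 in siPIR, 537.2 and 591.4 in siCTR, and 537.7 and 579.9 in NO, so siPIR was highest by a little. For this probe set the log2 difference was 0.22 against siCTR (0.13 to 0.32) and 0.24 against NO (0.16 to 0.32). The other measured probe set, which is dim, went the other way. It had 60.1 and 41.0 in siPIR, 165.3 and 108.1 in siCTR, and 194.5 and 188.2 in NO, with log2 differences of -1.34 and -1.84, and was called lower against both controls. This probe set passed the filter only through the controls, with pool means of 136.7 in siCTR and 191.4 in NO beside 50.6 in siPIR. The direction of SYNE2 therefore rests on which probe set is read, and the annotation does not say which of its transcripts each one detects.

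Over all members, 20 of 26 probe sets were measured, and 7 of the 20 were called lower and 0 higher than both controls, beside 3.11% and 1.52% of the 25089 measured probe sets annotated to 1 gene. The 7 were the 4 of TMPO and 1 each of LMNB1, SUN2 and SYNE2. The SYNE2 probe set passed the filter only through the controls, where it was high, so its call adds no support. LMNB1 and SUN2 have 1 probe set each, so their differences have no second probe set beside them.

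**Figure D3:**
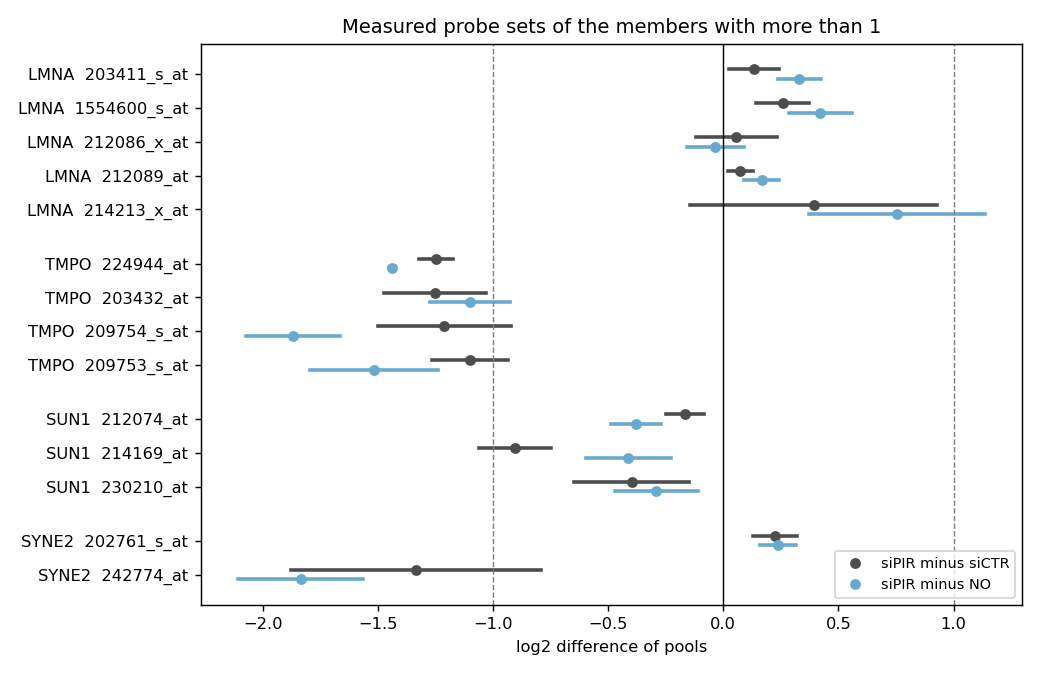
Log2 differences of siPIR from siCTR (dark) and from NO (light) for each measured probe set of LMNA, TMPO, SUN1 and SYNE2, brightest first, with lines for the range over the 4 pairs of arrays. The 4 TMPO probe sets lay between -1.87 and -1.10, and the 2 of SYNE2 lay on opposite sides of 0.

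The comparison of siCTR with NO shows how the members differed between the 2 controls. There 0 of the 10 genes were called in either direction, beside 2.47% of all measured genes called lower and 1.04% higher. SUN2 was higher in siCTR by 0.51 on the log2 scale (0.44 to 0.59), at the 95.1 percentile of all measured genes, and LBR by 0.45 (0.37 to 0.54), at the 94.1 percentile. LMNB2 was higher by 0.32 and EMD lower, at -0.39 (-0.63 to -0.15). LMNB1 differed by -0.21 (-0.41 to -0.02) and TMPO by -0.19. For SUN2 and LBR the siCTR pool was thus the higher control, and for LMNB1 and TMPO the NO pool.

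The promoters of the 3 genes called lower against both controls are shown because the genes were low in the same pool. Sequences are those of RefSeq on GRCh38.p14, from 250 bases before a transcript start to 30 bases after it, with LMNB1 at 2 annotated starts and TMPO and SUN2 at the first one listed. Capitals mark CCAAT, the core of the binding site of NF-Y, and TTTGAA, a form of the element found in promoters of many cell cycle genes, on either strand.
LMNB1, first start (GRCh38.p14 chr5:126776373-126776652, plus strand): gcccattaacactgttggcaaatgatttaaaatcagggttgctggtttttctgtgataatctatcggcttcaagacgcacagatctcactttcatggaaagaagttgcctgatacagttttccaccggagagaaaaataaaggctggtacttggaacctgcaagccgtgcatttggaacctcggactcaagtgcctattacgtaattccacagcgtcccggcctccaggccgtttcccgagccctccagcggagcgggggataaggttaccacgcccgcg
LMNB1, second start (GRCh38.p14 chr5:126776886-126777165, plus strand): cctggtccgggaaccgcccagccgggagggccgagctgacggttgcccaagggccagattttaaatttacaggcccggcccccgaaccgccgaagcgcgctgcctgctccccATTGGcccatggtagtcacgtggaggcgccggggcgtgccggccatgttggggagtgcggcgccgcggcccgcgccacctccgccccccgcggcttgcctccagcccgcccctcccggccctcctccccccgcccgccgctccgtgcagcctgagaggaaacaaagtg
TMPO (GRCh38.p14 chr12:98515323-98515602, plus strand): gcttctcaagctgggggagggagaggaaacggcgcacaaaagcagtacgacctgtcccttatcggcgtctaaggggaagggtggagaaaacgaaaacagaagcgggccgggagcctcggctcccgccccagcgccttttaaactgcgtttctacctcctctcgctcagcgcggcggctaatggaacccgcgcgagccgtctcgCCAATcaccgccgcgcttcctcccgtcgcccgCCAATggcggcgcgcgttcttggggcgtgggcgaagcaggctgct
SUN2 (GRCh38.p14 chr22:38755969-38756248, minus strand): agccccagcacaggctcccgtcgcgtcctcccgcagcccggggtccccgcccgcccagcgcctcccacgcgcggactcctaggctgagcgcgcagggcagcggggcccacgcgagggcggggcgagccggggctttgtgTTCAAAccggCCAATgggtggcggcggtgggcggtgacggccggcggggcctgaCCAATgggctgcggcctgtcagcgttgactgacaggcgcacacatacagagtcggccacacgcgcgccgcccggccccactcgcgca
CCAAT stood at -138 to -134 on the opposite strand at the second LMNB1 start, at -47 to -43 and -15 to -11 in TMPO, and at -101 to -97 and -57 to -53 in SUN2, counted from the start. It was in 7 of the 17 windows of the 9 members with a promoter sequence (all but SUN1), and in 33.6% of all 35116 windows of that length. The 7 include a second TMPO start, with CCAAT at -64 to -60 and -32 to -28. They also include members not called at their brightest probe set. These were LMNA (-146 to -142), EMD (-224 to -220 and -115 to -111) and SYNE2 (-57 to -53, opposite strand). TTTGAA was in 2 of the 17, those of SUN2 (-111 to -106, opposite strand) and LMNB2, and in 14.5% of all windows. GCGGGAA, a core of E2F sites, was in 2 of the 17, at LMNA and BANF1, and in 6.15% of all. These matches, searched on both strands and without overlap in the windows shown, describe the letters alone.

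TMPO-AS1, the gene next to TMPO in the RefSeq table and antisense to it, was looked at after its values were seen. It was dim, with 6.5 and 38.7 in siPIR, 93.5 and 131.2 in siCTR, and 124.3 and 90.1 in NO. It was called lower against both controls, at -2.34 (-3.52 to -1.17) and -2.28 (-3.45 to -1.12), and the wide ranges come from the second siPIR array lying well above the first. TMPO-AS1 passed the filter only through the controls, where it was high, so its call adds no support. Its pool means were 22.6 in siPIR, 112.4 in siCTR and 107.2 in NO.

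Of 52 other listed genes of the nuclear envelope, 47 were measured, and 2 of these were called lower and 2 higher than both controls. Of all measured genes, 3.22% were called lower and 1.52% higher in the same way. Their median log2 differences were -0.03 against siCTR and 0.02 against NO, beside 0.05 and 0.03 for all measured genes. Some of the listed genes, such as RB1, act elsewhere in the cell as well.

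Of the genes for breakdown, reassembly and sealing of the envelope, 16 were measured, and 1 was called lower and 0 higher than both controls. It was VRK1, a kinase that phosphorylates BANF1 and so releases it from DNA. VRK1 had signals of 856.4 and 845.9 in siPIR, 2163.1 and 2013.9 in siCTR, and 1945.6 and 1940.6 in NO. The siPIR arrays were far below the others, and the log2 difference was -1.29 against siCTR (-1.35 to -1.23) and -1.19 against NO (-1.20 to -1.18). BANF1 itself, as given, differed by -0.06 in each comparison. CHMP4B and VPS4A, which act in membrane sealing, differed from siCTR by 0.37 and -0.03 and from NO by 0.41 and 0.05, and were not called. AHCTF1 (-0.54 and -0.96) and NUP155 (-0.64 and -0.37) were lower than siCTR and NO without overlap and not called. CC2D1B (0.62 and 0.86) and CTDNEP1 (0.51 and 1.02) were higher without overlap, and CTDNEP1 was called against NO alone. The median of the list was 0.05 against siCTR and 0.02 against NO.

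Of the other inner membrane and LEM-domain genes, 12 were measured and 0 were called against both controls. NEMP1, an inner membrane protein, came closest. It had signals of 383.5 and 389.7 in siPIR, 828.4 and 905.6 in siCTR, and 720.1 and 748.4 in NO, with log2 differences of -1.15 (called) and -0.92 (not called). The LEM-domain genes LEMD3 and LEMD2 differed by 0.01 and 0.69 against siCTR.

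Of the other SUN and KASH genes, 6 were measured, and 1 was called lower and 1 higher than both controls, both of them dim. Each passed the filter only through the pools in which it was high, SYNE3 through the controls (siPIR pool mean 38.2, against 84.2 for siCTR and 92.2 for NO) and SYNE4 through siPIR (siPIR pool mean 78.2, against 30.2 for siCTR and 16.4 for NO), so these calls add no support. SYNE3, which encodes nesprin-3, had signals of 42.2 and 34.1 in siPIR, 69.7 and 98.8 in siCTR, and 82.9 and 101.6 in NO, at -1.03 and -1.17 on the log2 scale. SYNE4, which encodes nesprin-4, had 59.6 and 96.9 in siPIR, 8.6 and 51.9 in siCTR, and 22.5 and 10.4 in NO, at 1.53 (0.18 to 2.87) and 1.96 (1.22 to 2.70). Without siPIR replicate 2 neither was called; SYNE3 was also not called without siCTR replicate 2, nor SYNE4 without siCTR replicate 1.

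Of the 5 enzymes that process prelamin and other farnesylated proteins, all measured, 0 were called lower and 1 higher than both controls. It was RCE1, the protease that trims farnesylated proteins, with signals of 458.4 and 316.9 in siPIR, 153.0 and 212.8 in siCTR, and 120.1 and 155.6 in NO. Its log2 difference was 1.06 against siCTR (0.56 to 1.55) and 1.44 against NO (1.00 to 1.89), and it was called under only 7 of 14 alternatives. The call was lost without siPIR replicate 1, without siCTR replicate 1, with 4 times the pseudocount, under the 75th percentile filter, with quantile normalization, as the mean over probe sets, and without probe sets marked _x_at or _s_at. ZMPSTE24, the protease that matures lamin A, differed by -0.05 and -0.06. FNTB, the beta subunit of farnesyltransferase, had 68.8 and 6.4 in siPIR, 86.1 and 81.8 in siCTR, and 64.1 and 60.0 in NO, and its siPIR arrays overlapped those of NO. FNTB was called lower than siCTR alone, at -1.59 on the log2 scale. Without siPIR replicate 1, the brighter array, FNTB was called lower than both controls, by the single siPIR array at 6.4. FNTB passed the filter only through siCTR, so these calls add no support. Its pool means were 37.6 in siPIR, 83.9 in siCTR and 62.0 in NO.

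Of the chromatin partners of the lamina, 8 were measured and 0 were called in either comparison. The retinoblastoma gene RB1, whose protein is tethered in the nucleus by lamin A and a TMPO product, had the largest difference against both, -0.59 and -0.79. CBX5, which encodes the heterochromatin protein that binds LBR, differed by -0.11 and 0.05.

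**Figure D4:**
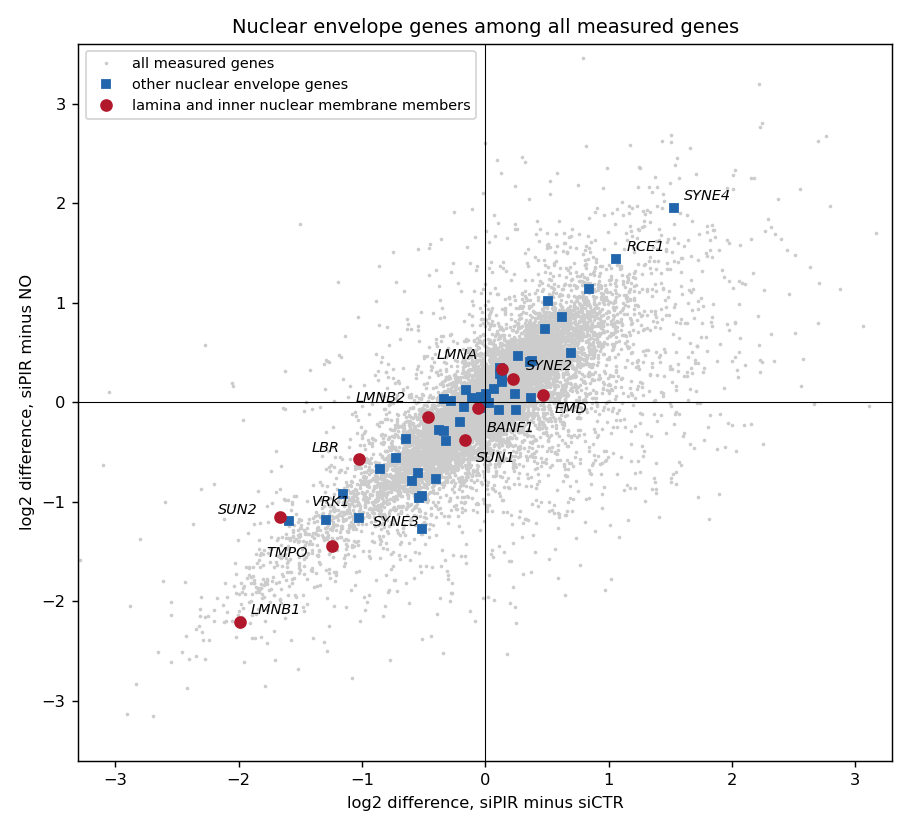
Log2 difference of siPIR from siCTR (horizontal) and from NO (vertical) for all 13071 measured genes (grey; 3 lie outside the axes), the 47 measured other nuclear envelope genes (blue squares) and the 10 members (red circles). The horizontal and vertical values share the siPIR arrays; LMNB1 stood at -1.99 and -2.20, below the other members on both axes.

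The genes most like LMNB1 were taken as the 5 bright ones closest to it in the pair of log2 differences of siPIR from siCTR and from NO, over the 3 pools. They were APOBEC3B, a cytidine deaminase (-1.96 and -2.20), PARPBP, a PARP1-binding protein (-1.98 and -2.16), TAF9B, a TFIID-related factor (-2.05 and -2.19), MAD2L1 of the spindle checkpoint (-1.89 and -2.13) and the spindle motor KIF11 (-2.11 and -2.20). Their distances from LMNB1 on that scale were 0.03 to 0.12. Closeness over 3 pools describes these libraries only.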

How the data were processed

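Per the submitters' processing notes, the authors used GCOS, software of the array maker, with version and scaling target not given in the sources used here. They deposited linear intensity values for 54675 probe sets on 6 arrays. Trimmed by 2% at either end, the mean was 500.1 on every array, the pattern of global scaling, which hides a change of total RNA per cell. All 6 columns were matched and 0 were left over.

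Of the probe sets, 41097 were annotated to 1 gene, 1801 to several and 11777 were unnamed; symbols were updated through Entrez identifiers to RefSeq. A gene took its probe set with the highest mean over the 6 arrays. The 10th percentile of all values, 5.4, was added before log2, which understates differences of dim genes. Measured genes had a pool mean above the median of all values, 70.2, and bright ones above the 75th percentile, 458.4. Arrays of a pool were averaged. The call rule was tested on simulated data for bright genes alone.

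The members and lists were chosen with earlier results of these data known. Named were all members, the listed envelope genes called against both controls, the gene of each list with the largest smaller difference, PIR, and the 5 genes nearest LMNB1. CHMP4B, VPS4A, AHCTF1, NUP155, CC2D1B, CTDNEP1, LEMD2, LEMD3, ZMPSTE24, CBX5, SPAG4, SUN5 and TMPO-AS1 were added after the values were seen. Other pseudocounts, filters, scalings, probe set rules, call sizes and left-out arrays were tried. Python 3.11.15, numpy 2.4.6, pandas 2.3.3 and matplotlib 3.10.9 were used. The number of RNA pools for each condition limits the precision, because repeat arrays of a pool show hybridisation error only.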

Additional observations from a re-analysis of the deposited data

How the results depend on the processing

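LMNB1, TMPO and SUN2 were called lower than both controls under all 14 alternatives that kept the 2-fold rule, and so was VRK1. LBR was called against siCTR under 12 of the 14. Over these alternatives LMNB1 ranged from -2.16 to -1.82 against siCTR and from -2.26 to -2.15 against NO, TMPO from -1.32 to -1.06 and from -1.80 to -1.43, and SUN2 from -1.75 to -1.59 and from -1.24 to -1.08. Without probe sets marked _x_at and _s_at, LMNB2 and BANF1 had none left. SYNE2 was then read from a dim probe set that passed the filter only through the controls. SYNE2 had -1.34 and -1.84 there and was called lower than both controls. PIR has a single probe set, of the marked kind, so this alternative could not be run for it.

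Without the marked probe sets the members called lower were 5 against siCTR, 4 against NO and 4 against both, in place of 4, 3 and 3. The added member was SYNE2. Leaving out an array gave 3 to 4 against siCTR, through LBR.

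Counts moved by 1.5 times or more for the other nuclear envelope genes alone. Called lower were 1 with 4 times the pseudocount, 1 with the filter at the 75th percentile and 5 at 1.5-fold, where 7.55% of all genes were called in place of 3.22%, against 2; leaving out an array gave 1 to 3. Called higher were 1 with 4 times the pseudocount, 0 with the filter at the 75th percentile, 1 with quantile normalization, 1 with the mean over probe sets, 1 without marked probe sets, 3 without a filter and 4 at 1.5-fold, where 6.37% of all genes were called in place of 1.52%, against 2; leaving out an array gave 0 to 2. The cause was not tested, except that the stricter filter removes dim genes and 1.5-fold is a wider rule. The PIR difference was -5.03 and -5.11 with 4 times the pseudocount, and -5.21 from NO with quantile normalization. No paired analysis was possible because the result comes from no test and the repeat arrays carry the same RNA pool.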
